A study of Homo sapiens with 6 samples.

Results

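The long arm of chromosome 13, written 13q, holds a row of genes that runs from the kinase gene DCLK1 to TDRD3 and has RB1, FOXO1 and EPSTI1 among its members. A set of 59 genes of this row was described in 2 lung adenocarcinoma cell lines. The set was drawn up by symbol and place on the chromosome, in a series of 19775 measured genes, with the log2 difference between the lines in view. Because the members were selected partly on that difference, it is given below as a description. Counts of members called higher or lower follow from that selection too, and are no test of the set. The table of human genes used here placed all 59 on chromosome 13, and 58 of them had at least 1 probe set annotated to that gene alone, 158 probe sets in all. PHF11 was not analysed here.

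PC9/gef is a gefitinib-resistant line that its makers established from PC9, a gefitinib-sensitive line with an activating mutation of EGFR, the kinase that the drug inhibits. Both were grown in RPMI-1640 medium with fetal bovine serum, and the sources name no other allele or agent. Total RNA of 3 PC9/gef and 3 PC9 samples, which the labels call biological replicates, was read on 6 Affymetrix arrays, 1 per sample. There was 1 resistant line, so what goes with resistance and what goes with this line cannot be told apart. Values are log2 of the normalized signal, and a difference of 1 is 2-fold. A value at or below 2.65 counted as background level, which is the 95th percentile of the means of 135 probe sets for olfactory receptor genes. All 6 arrays carried the same set of sorted values, from 1.65 to 15.72, so a shift of all genes together could not be seen. The number of arrays limits the precision, and the smallest two-sided p of an exact permutation test of 3 arrays against 3 is 0.1.

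The genes of the row share a place and not a pathway. RB1 encodes the retinoblastoma protein, which binds E2F factors and holds back entry into the DNA synthesis phase until cyclin-dependent kinases phosphorylate it. FOXO1 encodes a forkhead transcription factor that is kept out of the nucleus when phosphorylated by AKT, and which acts when insulin and growth factor signals are low. Around them lie genes of RNA synthesis and processing, of mitochondria, of the secretory and endosomal pathways, of ubiquitin ligase adaptors and of the cytoskeleton, most of which nearly all cells use.

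The sequences just before the starts of these genes were as mixed as their functions. The 250 bases upstream of a listed start were taken from RefSeq (GRCh38.p14) for the 50 members that matched. A listed start could lie up to 1000 bases from the annotated start of the gene. RB1 is among the 9 members without a match. They are shown for the 4 members with the largest difference between the lines, since these are the genes the values below turn on, and for SUCLA2, the 1 member called lower in PC9/gef. Capitals mark matches, on either strand, to GGGCGG (the GC box of SP factors), CCGGAAG (ETS factors), CCAAT (the box that NF-Y binds), TATAAA (the TATA box), TTTCGCGC (E2F) and TGACGTCA (the cyclic AMP response element).
SMAD9 (chr13:36920239-36920488, minus strand): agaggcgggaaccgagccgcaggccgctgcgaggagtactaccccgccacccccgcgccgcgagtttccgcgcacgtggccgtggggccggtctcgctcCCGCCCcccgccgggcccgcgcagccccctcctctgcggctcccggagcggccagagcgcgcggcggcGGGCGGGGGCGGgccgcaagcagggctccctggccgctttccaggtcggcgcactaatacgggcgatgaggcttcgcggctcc
DGKH (chr13:42039820-42040069, plus strand): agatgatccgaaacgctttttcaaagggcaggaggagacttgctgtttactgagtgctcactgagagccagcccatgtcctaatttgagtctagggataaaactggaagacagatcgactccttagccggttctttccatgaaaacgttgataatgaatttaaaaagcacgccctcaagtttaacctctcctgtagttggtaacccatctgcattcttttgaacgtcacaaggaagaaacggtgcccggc
RCBTB1 (chr13:49585559-49585808, minus strand): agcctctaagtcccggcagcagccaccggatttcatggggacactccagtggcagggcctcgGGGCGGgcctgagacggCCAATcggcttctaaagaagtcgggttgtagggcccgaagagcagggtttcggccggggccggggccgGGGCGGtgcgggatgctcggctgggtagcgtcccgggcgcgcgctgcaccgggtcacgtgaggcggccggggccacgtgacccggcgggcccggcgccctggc
COG6 (chr13:39655377-39655626, plus strand): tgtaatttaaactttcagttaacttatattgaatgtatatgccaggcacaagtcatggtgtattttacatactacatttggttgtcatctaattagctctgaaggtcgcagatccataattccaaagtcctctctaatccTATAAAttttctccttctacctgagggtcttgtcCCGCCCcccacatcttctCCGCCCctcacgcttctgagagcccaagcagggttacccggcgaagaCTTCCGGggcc
SUCLA2 (chr13:48001274-48001523, minus strand): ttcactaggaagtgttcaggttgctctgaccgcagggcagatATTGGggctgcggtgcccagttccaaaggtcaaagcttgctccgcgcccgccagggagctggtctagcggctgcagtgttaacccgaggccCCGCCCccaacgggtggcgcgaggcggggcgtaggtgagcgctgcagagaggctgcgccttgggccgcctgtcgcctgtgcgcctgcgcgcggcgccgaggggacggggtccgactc
The window of SMAD9 held 3 GC boxes and 39 CG pairs. That of RCBTB1 held 2 GC boxes, 1 CCAAT box and 29 CG pairs. In contrast, the window of DGKH held none of the 6 motifs and 9 CG pairs, and that of COG6 held 7 CG pairs with a TATA box, 2 GC boxes and an ETS match. SUCLA2 had 1 CCAAT box, 1 GC box and 25 CG pairs. No motif was found in all 4 windows of the most different members.

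Over the 50 matched members, 29 windows (58%) held GGGCGG, against 56.5% of the 14569 windows of protein-coding genes. CCAAT was found in 14 windows (28% against 34.8%), TATAAA in 8 (16% against 9.38%) and CCGGAAG in 7 (14% against 12.2%). TTTCGCGC and TGACGTCA were each found in 1 window (2%, against 0.721% and 2.38%). The median number of CG pairs was 22, against 17 in protein-coding genes, from 0 in RCBTB2 to 41 in FNDC3A. A match is only a run of letters, and no binding was measured.

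Several members start back to back. The starts of ELF1, on the minus strand, and WBP4, on the plus strand, lie 123 bases apart, and those of PROSER1 and NHLRC3 lie 222 bases apart. MTRF1 and NAA16 also run away from each other and overlap at their starts. The stretches between the first 2 pairs are shown on the plus strand, because both genes of a pair share them.
ELF1 and WBP4 (chr13:41061387-41061508, plus strand): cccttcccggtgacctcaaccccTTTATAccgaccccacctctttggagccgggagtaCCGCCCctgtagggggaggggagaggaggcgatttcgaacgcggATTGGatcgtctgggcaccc
PROSER1 and NHLRC3 (chr13:39038090-39038310, plus strand): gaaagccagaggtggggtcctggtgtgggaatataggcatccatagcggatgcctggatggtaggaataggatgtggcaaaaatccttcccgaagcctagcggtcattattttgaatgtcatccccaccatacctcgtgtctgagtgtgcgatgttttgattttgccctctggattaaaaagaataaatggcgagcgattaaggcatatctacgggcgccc
The stretch between ELF1 and WBP4 held a TATA box, a GC box and a CCAAT box, and that between PROSER1 and NHLRC3 held none of the motifs. The log2 differences, PC9/gef minus PC9, were 0.71 for ELF1 and 0.72 for WBP4, 0.95 for PROSER1 and 0.75 for NHLRC3, and 0.53 for MTRF1 and 0.73 for NAA16. All 6 genes were higher in PC9/gef.

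Most of the measured genes of the set were higher in PC9/gef. Of the 58 with a probe set, 55 lay above background level in at least 1 line, and CCNA1, FREM2 and TNFSF11 were at background level in both. Of the 55, the arrays of PC9/gef all lay above those of PC9 for 47 genes and all below them for 2, POSTN and SUCLA2. The background for this count over all 11955 genes above background level was 31.2% higher and 33.8% lower. By limma, at an adjusted p under 0.05 over all genes, 45 of the 55 were called higher, 1 was called lower and 9 did not pass, where 23.8% of all genes above background level were called higher and 22.2% lower. The members were chosen with this contrast known, so the counts show how the set is made up and nothing more. Each array reads the mean of a culture, so more cells with a transcript and more RNA per cell cannot be told apart.

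Few of the differences exceeded 2-fold. The median log2 difference of the 55 genes was 0.65, or 1.57-fold, with quartiles of 0.31 and 0.80. Over all genes above background level the median was -0.0098, with quartiles of -0.17 and 0.20. The members ran from -0.29 in TDRD3 to 1.54 in SMAD9. Of them 9 were over 2-fold higher (2.55% of all genes above background level were), none was over 2-fold lower (2.22%), 25 lay between 0.5 and 1 and 17 between 0 and 0.5. A gene is read here from its brightest probe set. When all probe sets of a gene were averaged, the median was 0.35 and 2 members were over 2-fold higher. That mean takes in the 49 of 158 member probe sets at background level, where no change can be read. It is therefore pulled towards 0 by rule. The median level of the members was 8.74, 8.74 and 8.84 on the PC9/gef arrays, against 8.09, 8.04 and 8.06 on the PC9 arrays. The spread within a line was small, with a median SD of 0.046, where it was 0.055 over all genes above background level.

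**Figure D1:**
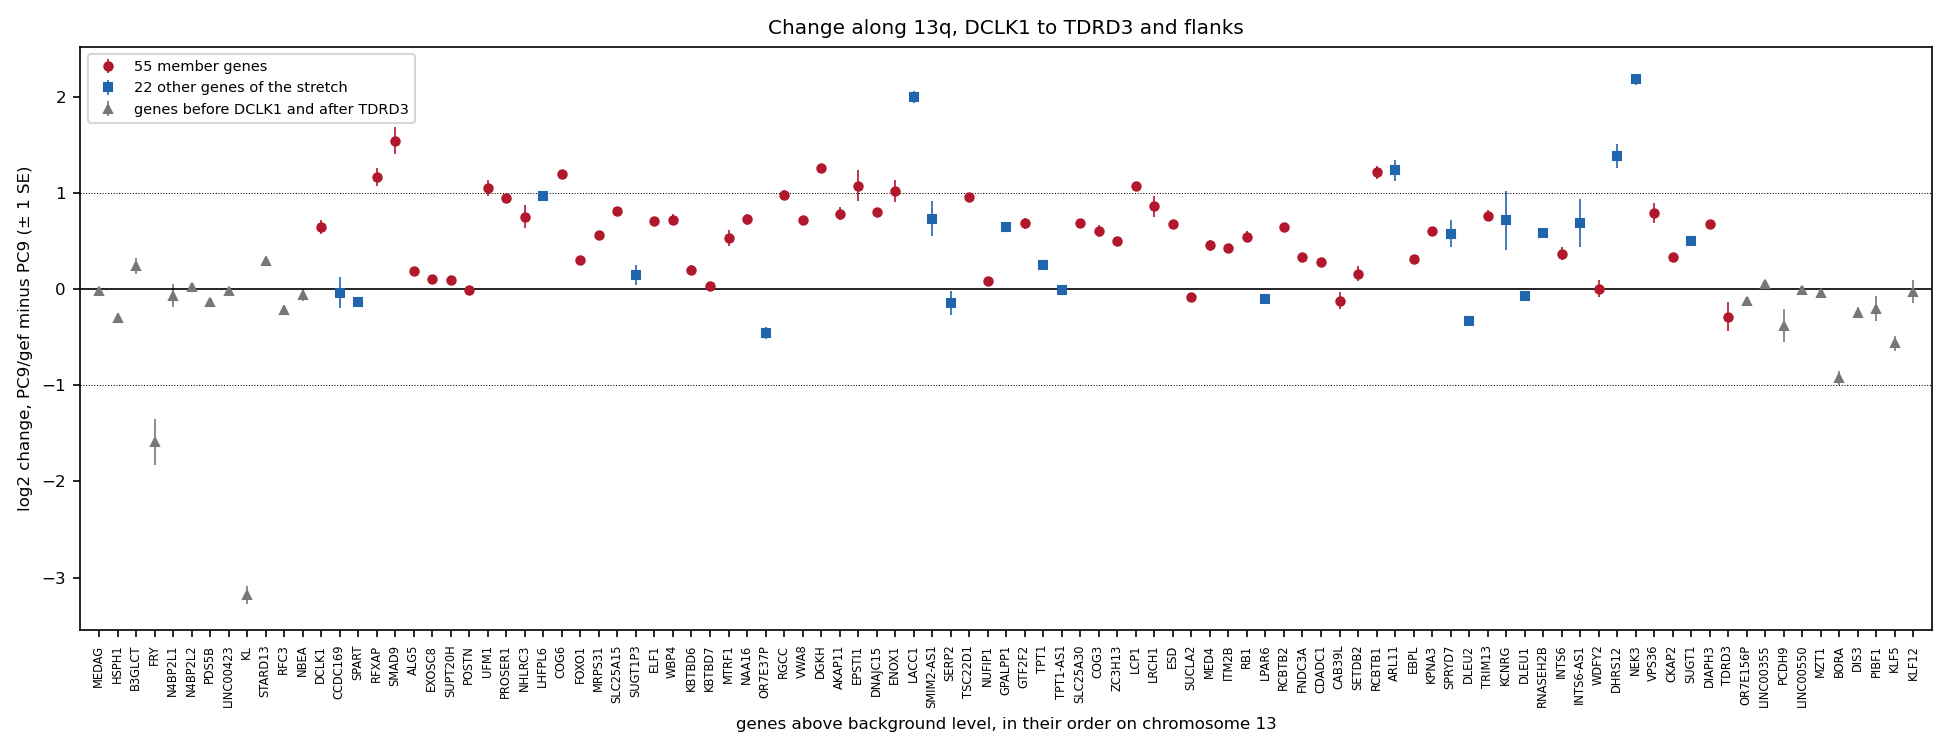
Change in log2 value (PC9/gef minus PC9, ± 1 SE, n = 3 arrays each) of the genes above background level, in their order along chromosome 13, with the 55 member genes as red circles, 22 other genes of the same stretch as blue squares, and the genes before DCLK1 and after TDRD3 as grey triangles. Dotted lines mark 2-fold. The members have a median of 0.65, the genes before DCLK1 of -0.064 and those after TDRD3 of -0.16.

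**Figure D2:**
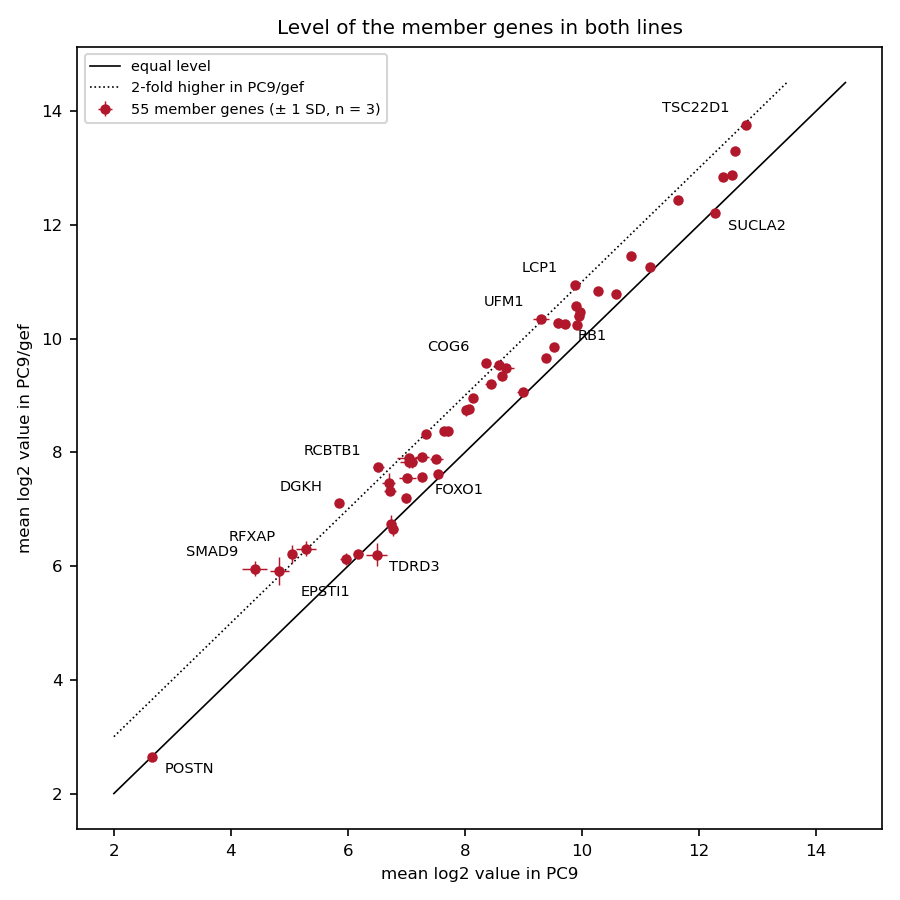
Mean log2 value of the 55 member genes above background level in PC9/gef (vertical axis) and PC9 (horizontal axis), with bars of 1 SD over 3 arrays. The solid line marks equal levels and the dotted line a level 2-fold higher in PC9/gef. 51 genes lie above the solid line, at low as at high levels, and 4 lie below it.

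The transcription and cell cycle regulators numbered 10 members. Of these, 8 lay above background level, 7 were called higher, and the median log2 difference was 0.83. Over all genes above background level, 23.8% were called higher and 22.2% lower. The counts by group, here and below, follow from how the set was chosen. RB1 read 10.24, 10.21 and 10.32 on the PC9/gef arrays, against 9.64, 9.71 and 9.81 on the PC9 arrays. The arrays of the lines did not overlap, and RB1 was 0.54 higher on the log2 scale (SE 0.056), or 1.46-fold. FOXO1 was read at 7.54, 7.58 and 7.58 on the PC9/gef arrays, against 7.22, 7.34 and 7.23 on the PC9 arrays, a smaller difference of 0.30 (SE 0.037), also without overlap. Its second probe set above background level gave 0.25.

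The 2 regulators over 2-fold higher were SMAD9 and RFXAP. SMAD9, a SMAD protein that carries the signal of BMP receptors to the nucleus, read 6.09, 5.84 and 5.91 on the PC9/gef arrays, against 4.63, 4.36 and 4.22 on the PC9 arrays. It was 2.92-fold higher (log2 1.54, SE 0.14), and the lowest PC9/gef array stood clear of the highest PC9 array. RFXAP, a subunit of the RFX complex that binds promoters of HLA class II genes, read 6.35, 6.04 and 6.26 on the PC9/gef arrays, against 5.07, 4.97 and 5.10 on the PC9 arrays, and was 2.25-fold higher (log2 1.17, SE 0.094). The other subunits of its complex, outside the stretch, were tested by limma: RFXANK averaged 10.25 ± 0.024 in PC9/gef and 10.04 ± 0.035 in PC9 (log2 0.21, adjusted p = 0.00481), and RFX5 averaged 9.35 ± 0.07 in PC9/gef and 9.16 ± 0.045 in PC9 (log2 0.19, adjusted p = 0.0416). RFX5 lost its call whenever any 1 array was left out, with adjusted p from 0.0559 to 0.122, and its direction turned on the probe set with the median change (log2 -0.15, adjusted p = 0.142). CIITA, the coactivator that works with RFX, was at background level in both lines.

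TSC22D1, a leucine zipper protein first known as stimulated by TGF-beta, read 13.71, 13.77 and 13.79 in PC9/gef and 12.80, 12.78 and 12.83 in PC9, a difference of 0.96. RGCC, a regulator of the cell cycle that binds CDK1, read 8.36, 8.30 and 8.28 in PC9/gef and 7.27, 7.31 and 7.41 in PC9, a difference of 0.98. Both came close to 2-fold. ELF1, a transcription factor of the ETS family, read 9.34, 9.33 and 9.35 in PC9/gef and 8.66, 8.56 and 8.67 in PC9, a difference of 0.71. SETDB2, a histone methyltransferase, read 6.12, 6.22 and 6.02 on the PC9/gef arrays, against 5.93, 6.07 and 5.89 on the PC9 arrays, and its arrays overlapped. CCNA1, the cyclin A of germ cells, gave 2.25 on every array, which is below background level.

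Genes that work with RB1 and FOXO1 but lie elsewhere were called in both directions, as genes above background level were overall (23.8% higher and 22.2% lower). Of 12 measured relatives and partners of RB1 (the other pocket proteins, E2F factors and their DP partners), 5 rose, 3 fell, 3 did not pass and 1 was at background level (of those above it 45.5% rose and 27.3% fell), with a median of 0.12 over those above it. TFDP2, a DP partner of E2F, averaged 9.44 ± 0.046 in PC9/gef and 8.70 ± 0.062 in PC9 (log2 0.74, adjusted p = 0.000658). TFDP1, its relative, averaged 11.40 ± 0.031 in PC9/gef and 11.89 ± 0.019 in PC9 (log2 -0.49, adjusted p = 0.000301). The 2 DP partners thus moved in opposite directions. RBL1, a pocket protein related to RB1, averaged 6.32 ± 0.13 in PC9/gef and 5.92 ± 0.062 in PC9 (log2 0.40, adjusted p = 0.0251), and its call was lost when PC9/gef replicate 1 or any of the 3 PC9 arrays was left out (adjusted p from 0.0624 to 0.0888) or its probe sets were averaged (adjusted p = 0.056). Of 18 measured genes driven by E2F in replication and the cell cycle, 7 rose (38.9%), 4 fell (22.2%) and 7 did not pass, with a median of -0.031. CDC25A, a phosphatase that activates cyclin-dependent kinases, averaged 7.96 ± 0.075 in PC9/gef and 9.06 ± 0.038 in PC9 (log2 -1.10, adjusted p = 0.000318), and MCM7, a subunit of the replicative helicase, averaged 9.55 ± 0.068 in PC9/gef and 10.08 ± 0.045 in PC9 (log2 -0.52, adjusted p = 0.00197). CCNE2, a cyclin of the G1 to S transition, averaged 8.11 ± 0.20 in PC9/gef and 7.48 ± 0.10 in PC9 (log2 0.64, adjusted p = 0.024), a call that held without PC9/gef replicate 2 but not without any other array (adjusted p from 0.0581 to 0.0805), and that was lost on the probe set with the median change (log2 0.052).

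Of 15 FOXO relatives and FOXO target genes, 3 rose (20%), 3 fell (20%) and 9 did not pass, with a median of 0.049. Among the 6 that passed, the 3 with the largest changes fell. BCL6, a transcriptional repressor, averaged 8.71 ± 0.057 in PC9/gef and 10.18 ± 0.037 in PC9 (log2 -1.47, adjusted p = 0.000113), and on the probe set with the median change its difference was -0.68 (adjusted p = 0.0683). INSR, the insulin receptor, averaged 2.82 ± 0.25 in PC9/gef and 5.90 ± 0.24 in PC9, near background level in PC9/gef (log2 -3.08, adjusted p = 0.000803). IRS2, an adaptor of the insulin receptor, averaged 11.06 ± 0.013 in PC9/gef and 11.81 ± 0.0045 in PC9 (log2 -0.75, adjusted p = 3.16e-05).

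The members that make or process RNA showed smaller differences. All 9 lay above background level, and their median log2 difference was 0.37. Of them 6 were called higher (23.8% over all genes above background level), none lower (22.2%) and 3 did not pass. WBP4, a protein of the spliceosome, read 8.72, 8.64 and 8.84 in PC9/gef and 8.002, 8.01 and 8.02 in PC9 (difference 0.72). GTF2F2, the small subunit of the transcription factor TFIIF, read 10.35, 10.17 and 10.30 in PC9/gef and 9.55, 9.57 and 9.65 in PC9 (difference 0.69). ZC3H13, a subunit of the complex that methylates adenosine in mRNA, read 10.45, 10.50 and 10.43 in PC9/gef and 9.98, 9.96 and 9.96 in PC9 (difference 0.50). These were the members of the group with the largest differences, and none reached 2-fold. MED4, a subunit of Mediator, read 10.42, 10.33 and 10.45 in PC9/gef and 9.86, 9.98 and 9.996 in PC9 (difference 0.46). INTS6, a subunit of the Integrator complex that ends transcription of small nuclear RNA genes, read 7.91, 7.82 and 7.91 on the PC9/gef arrays, against 7.38, 7.59 and 7.55 on the PC9 arrays (difference 0.37). SUPT20H, a subunit of the SAGA coactivator, read 7.64, 7.60 and 7.63 on the PC9/gef arrays, against 7.56, 7.53 and 7.50 on the PC9 arrays, and its arrays did not overlap although the difference was only 0.091. The call of INTS6 was lost without PC9/gef replicate 1 or 3 or PC9 replicate 3 (differences from 0.36 to 0.39), and that of SUPT20H without PC9/gef replicate 1 or 3 or PC9 replicate 2 or 3 (from 0.077 to 0.092).

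The other 3 genes of RNA did not pass. EXOSC8, a subunit of the RNA exosome that degrades RNA from the 3′ end, read 11.28, 11.24 and 11.26 on the PC9/gef arrays, against 11.10, 11.16 and 11.21 on the PC9 arrays, without overlap but with a difference of 0.10 (SE 0.032). NUFIP1, which helps to assemble small nucleolar ribonucleoproteins, read 9.07, 9.04 and 9.09 on the PC9/gef arrays, against 8.96, 9.08 and 8.91 on the PC9 arrays, and its arrays overlapped. TDRD3, a Tudor domain protein that reads methylated arginine and marks the far end of the row, read 6.13, 6.43 and 6.04 on the PC9/gef arrays, against 6.66, 6.31 and 6.50 on the PC9 arrays. It was the member with the lowest difference, -0.29 (SE 0.15), and its lines overlapped, since PC9/gef replicate 2 lay above PC9 replicate 2. All 3 of its probe sets above background level gave negative values, from -0.29 to -0.15.

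Partners of these genes that lie outside the stretch were tested by limma, without regard to where else on the chromosomes they lie. Over all genes above background level, 23.8% were called higher and 22.2% lower. Of 10 further exosome genes, 2 rose (20%), 5 fell (50%) and 3 did not pass (median -0.11). EXOSC7 averaged 10.56 ± 0.089 in PC9/gef and 11.49 ± 0.0081 in PC9 (log2 -0.93, adjusted p = 0.000532), EXOSC9 averaged 10.79 ± 0.0079 in PC9/gef and 10.49 ± 0.03 in PC9 (log2 0.30, adjusted p = 0.000684), and the nuclease DIS3 averaged 9.33 ± 0.06 in PC9/gef and 9.57 ± 0.10 in PC9 (log2 -0.24, adjusted p = 0.0471). The call of DIS3 held without PC9 replicate 1 but not without any other array (adjusted p from 0.0889 to 0.138). DIS3 lies near the stretch, and is also 1 of the 3 genes called lower among the 20 measured after TDRD3. Of 15 further SAGA genes, 2 rose, 5 fell, 7 did not pass and 1 was at background level (median -0.0013). Of the SAGA genes above it, 14.3% rose and 35.7% fell. KAT2B, its acetyltransferase, averaged 6.13 ± 0.026 in PC9/gef and 7.58 ± 0.058 in PC9 (log2 -1.46, adjusted p = 0.000104), ATXN7 of its deubiquitinating module averaged 6.11 ± 0.079 in PC9/gef and 7.33 ± 0.078 in PC9 (log2 -1.22, adjusted p = 0.000463), and TRRAP, which binds activators, averaged 7.29 ± 0.043 in PC9/gef and 8.21 ± 0.031 in PC9 (log2 -0.92, adjusted p = 0.000164).

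Of 21 measured partners in TFIIF and Mediator, 3 rose, 6 fell, 11 did not pass and 1 was at background level (median 0.038). Of those above it, 15% rose and 30% fell. The largest changes were in the Mediator subunits MED21 (log2 -0.52, adjusted p = 0.000568), MED31 (log2 -0.43, adjusted p = 0.00186) and MED17 (log2 -0.35, adjusted p = 0.00231), all falls on the brightest probe set. Without probe sets named _x_at, _s_at or _a_at, MED31 was at 0.21 (adjusted p = 0.0758) and MED17 at -0.079 (adjusted p = 0.231), so these 2 falls rest on 1 probe set each, and the direction of MED31 turns. Of 14 Integrator partners, 1 rose, 3 fell, 9 did not pass and 1 was at background level (median -0.046). Of those above it, 7.69% rose and 23.1% fell. INTS4 (log2 -0.34, adjusted p = 0.00437) and INTS8 (log2 -0.15, adjusted p = 0.00345) fell. INTS1 rose (log2 0.34, adjusted p = 0.0351), a call that was kept only without PC9 replicate 2 when arrays were left out (otherwise adjusted p from 0.0676 to 0.115), and without probe sets named _x_at, _s_at or _a_at INTS1 was left at background level. Of 7 partners of ZC3H13 in the RNA methylation complex, 1 rose (14.3%), 3 fell (42.9%) and 3 did not pass (median -0.038). Those that fell were CBLL1 (log2 -0.58, adjusted p = 0.000562), the catalytic subunit METTL3 (log2 -0.44, adjusted p = 0.00656) and RBM15B (log2 -0.41, adjusted p = 0.00245). METTL3 was at -0.019 (adjusted p = 0.819) without probe sets named _x_at, _s_at or _a_at.

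All 7 members that encode mitochondrial proteins lay above background level, with a median log2 difference of 0.69. Of them 6 were called higher, where 23.8% of all genes above background level were. SLC25A15, the carrier that brings ornithine into mitochondria for the urea cycle, read 8.97, 8.94 and 8.95 in PC9/gef and 8.18, 8.19 and 8.06 in PC9 (difference 0.81). DNAJC15, a cochaperone of the inner membrane, read 12.48, 12.40 and 12.45 in PC9/gef and 11.68, 11.62 and 11.63 in PC9 (difference 0.80). VWA8, a mitochondrial ATPase, read 8.40, 8.38 and 8.32 in PC9/gef and 7.63, 7.70 and 7.61 in PC9 (difference 0.72). These 3 lay near each other in size. SLC25A30, another carrier of the inner membrane, read 8.74, 8.74 and 8.78 in PC9/gef and 8.09, 8.04 and 8.07 in PC9 (difference 0.69). MRPS31, a protein of the small mitochondrial ribosomal subunit, read 10.87, 10.81 and 10.82 in PC9/gef and 10.32, 10.20 and 10.28 in PC9 (difference 0.57), and MTRF1, a release factor of mitochondrial translation, read 7.52, 7.53 and 7.59 in PC9/gef and 6.95, 7.18 and 6.92 in PC9 (difference 0.53). None of the 6 had overlapping arrays.

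SUCLA2, the ADP-forming subunit of succinyl-CoA synthetase in the citric acid cycle, was the exception. It read 12.23, 12.19 and 12.18 on the PC9/gef arrays, against 12.27, 12.29 and 12.28 on the PC9 arrays, with every PC9/gef array below every PC9 array but a difference of only -0.078 (SE 0.016). Its call held without PC9/gef replicate 1 and was lost without any other array, at differences from -0.069 to -0.084. The other subunits of the enzyme moved in opposite directions. SUCLG2, the GDP-forming counterpart, averaged 8.80 ± 0.084 in PC9/gef and 9.52 ± 0.05 in PC9 (log2 -0.72, adjusted p = 0.00133), and SUCLG1, the subunit shared by both forms, averaged 11.73 ± 0.024 in PC9/gef and 11.64 ± 0.0019 in PC9 (log2 0.086, adjusted p = 0.0112).

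The 8 members of the endoplasmic reticulum, Golgi and endosomes had a median of 0.52. Of them 7 were called higher (23.8% over all genes above background level) and 1 did not pass. COG6 and COG3 are subunits of the COG complex, which tethers vesicles at the Golgi. COG6 read 9.60, 9.57 and 9.52 on the PC9/gef arrays, against 8.30, 8.40 and 8.38 on the PC9 arrays, and was 2.3-fold higher (log2 1.20, SE 0.036). COG3 read 7.37, 7.29 and 7.31 on the PC9/gef arrays, against 6.69, 6.63 and 6.83 on the PC9 arrays, a difference of 0.61 (SE 0.061). Neither overlapped between the lines. Of the 6 COG subunits encoded elsewhere, 5 did not pass and COG5 fell (log2 -0.52, adjusted p = 0.000638, 8.12 ± 0.029 in PC9/gef and 8.64 ± 0.045 in PC9), with a median of -0.034.

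UFM1, a small protein that is attached to other proteins like ubiquitin, largely at the endoplasmic reticulum, read 10.38, 10.26 and 10.40 on the PC9/gef arrays, against 9.23, 9.20 and 9.45 on the PC9 arrays, and was 2.07-fold higher (log2 1.05, SE 0.087). PC9 replicate 3 stood above the other PC9 arrays but below every PC9/gef array. The other 2 probe sets of UFM1 above background level were dimmer. They gave 0.69 without overlap and 0.18 with overlapping arrays, so the value over 2-fold rests on 1 probe set. Of 5 measured genes of UFM1 attachment and removal, 2 rose, 1 fell, 1 did not pass and 1 was at background level. Of the 4 above it, 50% rose and 25% fell, against 23.8% and 22.2% of all genes above background level. The conjugating enzyme UFC1 averaged 12.20 ± 0.013 in PC9/gef and 11.94 ± 0.034 in PC9 (log2 0.26, adjusted p = 0.00138). The ligase components DDRGK1 and CDK5RAP3 went opposite ways, with DDRGK1 at -0.53 (adjusted p = 0.00684) and CDK5RAP3 at 0.26 (adjusted p = 0.0129). CDK5RAP3 lost its call without PC9/gef replicate 1 (adjusted p = 0.052) or PC9 replicate 2 (adjusted p = 0.0549).

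VPS36, a subunit of the ESCRT-II complex that sorts ubiquitinated receptors into endosomes for degradation, read 7.90, 7.70 and 7.88 on the PC9/gef arrays, against 6.94, 7.21 and 6.96 on the PC9 arrays (difference 0.79). The other subunits of ESCRT-II rose, SNF8 by 0.14 (adjusted p = 0.0118) and VPS25 by 0.11 (adjusted p = 0.0395). VPS25 kept its call only without PC9/gef replicate 1 when arrays were left out (otherwise adjusted p from 0.0626 to 0.121). ITM2B, a membrane protein cleaved by furin, read 12.86, 12.80 and 12.84 in PC9/gef and 12.36, 12.44 and 12.44 in PC9 (difference 0.42). EBPL, a relative of a sterol isomerase, read 12.87, 12.87 and 12.86 in PC9/gef and 12.59, 12.53 and 12.54 in PC9 (difference 0.31), and ALG5, a glucosyltransferase of N-glycosylation, read 10.76, 10.79 and 10.78 in PC9/gef and 10.55, 10.59 and 10.62 in PC9 (difference 0.19). These 3 were at small but cleanly separated differences. WDFY2, a protein of early endosomes, read 6.87, 6.79 and 6.58 on the PC9/gef arrays, against 6.67, 6.74 and 6.82 on the PC9 arrays, and the arrays overlapped on this probe set. Another of its probe sets averaged 6.14 in PC9/gef and 5.91 in PC9, without overlap and at a difference of 0.23. A dimmer one gave 0.36 with overlapping arrays.

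The 9 members of signalling and ubiquitin ligase adaptors held 6 called higher and 3 that did not pass (median 0.65). Over all genes above background level, 23.8% were called higher. DGKH, a kinase that turns diacylglycerol into phosphatidic acid, read 7.14, 7.12 and 7.05 on the PC9/gef arrays, against 5.83, 5.82 and 5.88 on the PC9 arrays, and was 2.4-fold higher (log2 1.26, SE 0.032). DCLK1, a kinase that binds microtubules and marks the near end of the row, read 7.93, 7.87 and 7.93 on the PC9/gef arrays, against 7.29, 7.13 and 7.37 on the PC9 arrays (difference 0.65, SE 0.071). AKAP11, which anchors protein kinase A, read 9.49, 9.50 and 9.47 in PC9/gef and 8.59, 8.68 and 8.84 in PC9 (difference 0.79). The 3 genes showed no overlap. TRIM13, a ubiquitin ligase of the endoplasmic reticulum, read 9.20, 9.18 and 9.23 in PC9/gef and 8.53, 8.33 and 8.46 in PC9 (difference 0.76). That value rests on 1 probe set named _s_at, since the other 2 above background level gave 0.038 and 0.19, with overlapping arrays, and without probe sets so named TRIM13 was not called. CAB39L, a relative of the LKB1 activator CAB39, read 6.81, 6.62 and 6.54 on the PC9/gef arrays, against 6.87, 6.71 and 6.76 on the PC9 arrays, and its lines overlapped at a difference of -0.12. CAB39 itself, which lies outside the stretch, rose and averaged 11.63 ± 0.0052 in PC9/gef and 11.40 ± 0.019 in PC9 (log2 0.23, adjusted p = 0.000396), while the other 3 genes of the LKB1 complex did not pass. On the probe set of CAB39 with the median change, far dimmer at 3.21 in PC9/gef and 3.28 in PC9, the direction turned (log2 -0.077, adjusted p = 0.0253).

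Pairs of related genes also lay among these adaptors. RCBTB1 and RCBTB2 encode proteins with RCC1 repeats and a BTB domain. RCBTB1 read 7.65, 7.76 and 7.79 on the PC9/gef arrays, against 6.48, 6.45 and 6.62 on the PC9 arrays, and was 2.32-fold higher (log2 1.21, SE 0.065). RCBTB2 read 8.37, 8.29 and 8.43 on the PC9/gef arrays, against 7.74, 7.70 and 7.71 on the PC9 arrays, with a difference of 0.65 (SE 0.041). Both were separated between the lines. KBTBD6 and KBTBD7 encode kelch and BTB domain adaptors of a cullin ubiquitin ligase. KBTBD6 read 7.16, 7.12 and 7.28 on the PC9/gef arrays, against 6.93, 7.01 and 7.02 on the PC9 arrays, without overlap and with a difference of 0.20 (SE 0.053). KBTBD7 read 6.19, 6.24 and 6.18 on the PC9/gef arrays, against 6.23, 6.08 and 6.21 on the PC9 arrays, and overlapped.

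**Figure D3:**
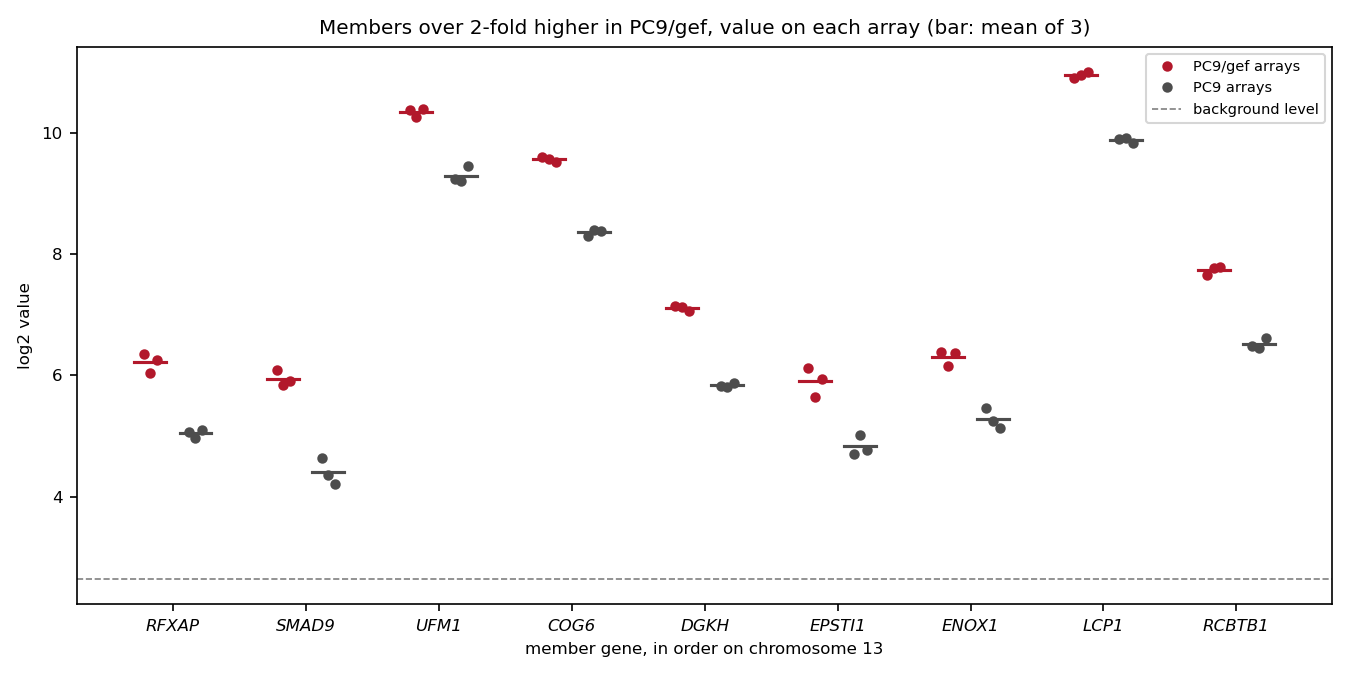
Log2 value on each array (points) and mean of 3 (bars) of the 9 members over 2-fold higher in PC9/gef, with the PC9/gef arrays in red on the left and the PC9 arrays in grey on the right of each gene, and the background level of 2.65 as a dashed line. No PC9/gef point of a gene overlaps a PC9 point of it, and the spread within a line is widest in EPSTI1, SMAD9 and ENOX1.

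The cytoskeleton, transport and remaining cell functions made up 13 members, all above background level and all called higher (median 0.73). Over all genes above background level, 23.8% were called higher. Of the 13 members, 3 were over 2-fold higher. LCP1, also named L-plastin, bundles actin filaments and is typical of leukocytes, though many carcinoma lines carry it too. It read 10.90, 10.95 and 10.996 on the PC9/gef arrays, against 9.89, 9.91 and 9.82 on the PC9 arrays, and was 2.1-fold higher (log2 1.07, SE 0.037). Of 6 leukocyte markers, 4 were measured and PTPRC, CD3E and CD14 lay at background level in both lines. ITGAM was the only leukocyte marker above it, at 4.73, 5.52 and 4.54 in PC9/gef and 3.78, 3.78 and 3.75 in PC9, and the summed log2 level of the 4 ran from 11.5 to 12.4 in PC9/gef and from 10.7 to 10.8 in PC9.

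EPSTI1, which is induced by interferon and was first described where breast epithelium meets stroma, read 6.13, 5.64 and 5.95 on the PC9/gef arrays, against 4.70, 5.01 and 4.77 on the PC9 arrays. It was 2.11-fold higher (log2 1.08, SE 0.16), with the widest spread within a line of all members (SD 0.25 in PC9/gef). Without PC9/gef replicate 1 its difference was 0.96. When the replicate number was added to the limma model, EPSTI1 was no longer called (adjusted p = 0.0995). ENOX1, an oxidase of NADH at the cell surface, read 6.39, 6.15 and 6.37 on the PC9/gef arrays, against 5.46, 5.26 and 5.13 on the PC9 arrays, and was 2.03-fold higher (log2 1.02, SE 0.12). Both were separated between the lines. Of 6 fibroblast markers, COL1A1 (8.46 ± 0.074 in PC9/gef and 7.94 ± 0.21 in PC9) and THY1 (2.70 ± 0.0086 in PC9/gef and 2.71 ± 0.0041 in PC9) were above background level, and the summed log2 level of the list ran from 20.7 to 20.8 in PC9/gef and from 20.1 to 20.5 in PC9. The part of these markers in the values of EPSTI1 and LCP1 was not tested.

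The other 10 genes of the group lay between 0.28 and 0.95. PROSER1, a proline and serine rich protein, read 9.55, 9.50 and 9.54 in PC9/gef and 8.58, 8.60 and 8.55 in PC9 (difference 0.95). LRCH1, a protein with leucine-rich repeats and a calponin homology domain, read 7.89, 7.94 and 7.88 in PC9/gef and 7.26, 6.97 and 6.88 in PC9 (difference 0.86), and NHLRC3, named for its NHL repeats, read 7.54, 7.24 and 7.57 in PC9/gef and 6.59, 6.80 and 6.70 in PC9 (difference 0.75). LRCH1 and NHLRC3 were the least even of the 10, since LRCH1 varied in PC9 (SD 0.20) and NHLRC3 in PC9/gef (SD 0.19), and NHLRC3 was no longer called without PC9 replicate 3, at a difference of 0.76. NAA16, an auxiliary subunit of the enzyme that acetylates nascent proteins, read 7.85, 7.71 and 7.90 in PC9/gef and 7.10, 7.12 and 7.06 in PC9 (difference 0.73). DIAPH3, a formin that nucleates actin filaments, read 10.57, 10.61 and 10.56 in PC9/gef and 9.86, 9.93 and 9.90 in PC9 (difference 0.68). ESD, an esterase that acts on S-formylglutathione, read 13.28, 13.26 and 13.32 in PC9/gef and 12.58, 12.66 and 12.59 in PC9 (difference 0.68). These last 3 differed by 0.68 to 0.73.

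KPNA3, an importin that carries cargo into the nucleus, read 11.45, 11.43 and 11.45 in PC9/gef and 10.82, 10.89 and 10.81 in PC9 (difference 0.60). FNDC3A, a membrane protein with fibronectin type III domains, read 9.83, 9.86 and 9.85 in PC9/gef and 9.51, 9.53 and 9.51 in PC9 (difference 0.33), and CKAP2, a protein of the mitotic spindle, read 10.25, 10.21 and 10.28 in PC9/gef and 9.88, 9.94 and 9.92 in PC9 (difference 0.33). CDADC1, which has a cytidine deaminase domain, read 9.65, 9.65 and 9.67 in PC9/gef and 9.36, 9.36 and 9.43 in PC9 (difference 0.28). In all 4 the lowest PC9/gef array lay above the highest PC9 array.

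The 3 members grouped as extracellular matrix proteins and ligands, POSTN, FREM2 and TNFSF11, lay at or near background level. POSTN, the matrix protein periostin, read 2.64, 2.65 and 2.65 on the PC9/gef arrays, against 2.66, 2.66 and 2.65 on the PC9 arrays, at the edge of background level, and its difference of -0.01 has no readable meaning as a fold. FREM2, an extracellular matrix protein, read 2.39, 2.44 and 2.38 in PC9/gef and 2.38, 2.38 and 2.39 in PC9. TNFSF11, the RANK ligand, read 2.62, 2.50 and 2.52 in PC9/gef and 2.49, 2.52 and 2.54 in PC9. The last 2 were at background level in both lines.

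Where a gene had several probe sets, they mostly told the same direction and often another size. Of the 158 probe sets of the members, 109 lay above background level in a line, and of these 92 had a positive difference. Their PC9/gef arrays all lay above those of PC9 in 75, below them in 8 and overlapped in 26, with a median difference of 0.41. These counts follow from how the set was chosen, and the share over all probe sets was not computed. By gene, 31.2% of all genes above background level lay higher without overlap and 33.8% lower. Of 35 members with several probe sets above background level, 25 had positive differences in all of them, TDRD3 had negative ones in all, and 9 had both signs. The median range between probe sets of a gene was 0.31.

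Among the 9 genes with both signs, DGKH was the 1 gene whose probe sets differed by over 2-fold in their change. The probe set it is read from averaged 7.11 in PC9/gef and 5.84 in PC9 and gave 1.26. Its other 4 gave from -0.05 to 0.15, and all of them had means under 4 in both lines. In KBTBD7, 1 further probe set averaged 6.08 in PC9/gef and 6.28 in PC9 (-0.20) and another 3.82 in PC9/gef and 4.33 in PC9 (-0.50), both with PC9/gef below PC9 on every array. In KBTBD6 the dimmer probe set gave -0.054 and overlapped. For SUPT20H the probe sets gave 0.091, -0.10 and 0.17. For NUFIP1 they gave 0.081, 0.25 and -0.017, and for INTS6 0.37, 0.47 and -0.03. The remaining genes with both signs were FNDC3A (0.33 and -0.044), CAB39L (-0.12, -0.13 and 0.23) and SETDB2 (0.16, -0.051 and -0.015). Probe sets whose names end in _s_at or _x_at can match more than 1 transcript or gene, and the only readable probe sets of RGCC and SUCLA2, among others, are of this kind. On the probe set with the median change, 7 members besides FNDC3A were no longer called, at differences of 0.78 for SLC25A15, 0.15 for NAA16, 0.38 for VWA8, 0.15 for DGKH, 0.19 for TRIM13, 0.17 for CKAP2 and 0.37 for DIAPH3. Each of these probe sets is dimmer than the one the gene is read from. Where a gene has an even number of probe sets above background level, the lower of the middle changes is taken. SLC25A15, NAA16, VWA8, CKAP2, DIAPH3, FNDC3A and KBTBD6 were read this way, so their lower values were fixed by rule.

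**Figure D4:**
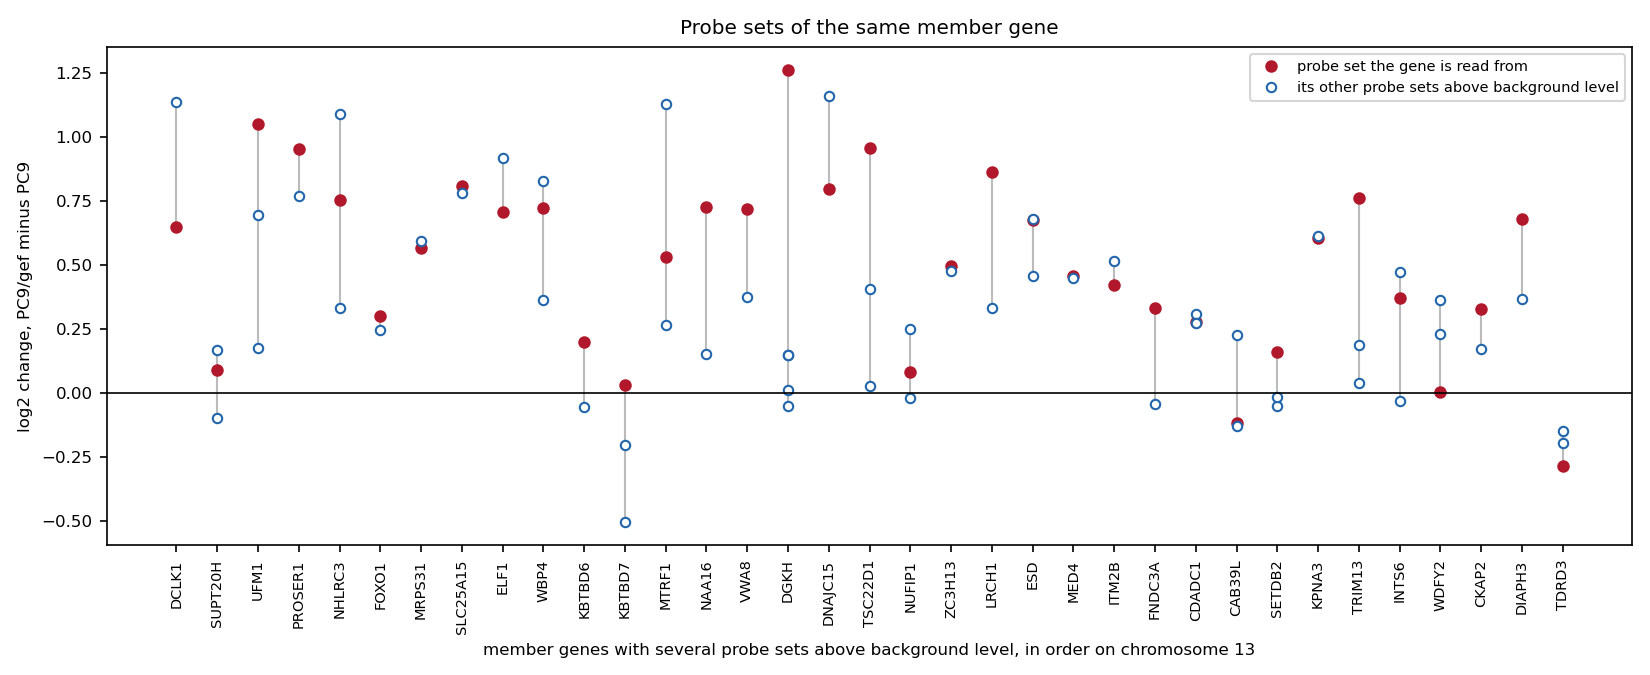
Difference in log2 value between PC9/gef and PC9 for every probe set above background level of the 35 members that have several, in their order on chromosome 13, with the probe set a gene is read from as a filled red circle and the others as open blue circles, joined by a grey line. TDRD3 has all its points below 0, 9 genes have points on both sides, and the points of DGKH lie farthest apart.

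Other genes that the table of human genes places between DCLK1 and TDRD3 had a positive median too where they were expressed. They were left out of the set with their values known, so their values and calls too are a description and no test. Of 71 that were measured, 49 lay at background level in both lines and 22 above it, with a median log2 difference of 0.54 over the 22, of which 14 were positive. Of these 22, 11 were called higher, 2 lower and 9 did not pass, against 23.8% called higher and 22.2% called lower of all genes above background level. Over 2-fold higher were NEK3, a kinase of the NIMA family, LACC1, an enzyme of purine nucleoside metabolism known from macrophages, DHRS12, a dehydrogenase, and ARL11, a small GTPase of the ARF family.

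NEK3 read 7.07, 6.91 and 7.04 on the PC9/gef arrays, against 4.76, 4.88 and 4.82 on the PC9 arrays, and was 4.55-fold higher (log2 2.19). LACC1 read 9.72, 9.59 and 9.78 on the PC9/gef arrays, against 7.64, 7.70 and 7.74 on the PC9 arrays, and was 4.005-fold higher (log2 2.002). Both differed by more than any member of the set. DHRS12 read 8.02, 7.98 and 7.63 in PC9/gef and 6.50, 6.53 and 6.44 in PC9 (log2 1.39), but its probe set with the median change gave -0.026. ARL11 read 7.43, 7.30 and 7.19 in PC9/gef and 6.07, 6.23 and 5.92 in PC9 (log2 1.23). The 2 called lower were OR7E37P (6.84 ± 0.034 in PC9/gef and 7.30 ± 0.11 in PC9) and DLEU2 (7.29 ± 0.065 in PC9/gef and 7.62 ± 0.043 in PC9), both on probe sets that can match other transcripts. Members and other genes together made 77 above background level in the stretch, of which 56 were called higher and 3 lower.

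On either side of the stretch the median difference was below 0, and the shares called can be read against the same 23.8% and 22.2%. Of the 20 measured genes before DCLK1, 12 lay above background level, 1 was called higher and 5 lower, and the median was -0.064. The nearest were NBEA, at 7.35, 7.14 and 7.30 in PC9/gef and 7.37, 7.28 and 7.33 in PC9, whose arrays overlapped, and LINC00445, which was at background level. KL, which encodes klotho, read 5.35, 5.03 and 5.15 on the PC9/gef arrays, against 8.32, 8.40 and 8.35 on the PC9 arrays, and was 9.06-fold lower (log2 -3.18). FRY, a large scaffold protein, was at background level in PC9/gef (2.35, 2.35 and 2.33) and read 4.33, 4.004 and 3.47 in PC9, at least 2.44-fold lower against the background level. On a probe set of FRY whose name does not end in _s_at the difference was -0.22. Of the 20 measured genes after TDRD3, 10 lay above background level, none was called higher and 3 lower, and the median was -0.16. The nearest, LINC01442 and LINC00358, were at background level. BORA, an activator of the mitotic kinase Aurora A, had the largest difference of this side, -0.92 (7.65 ± 0.13 in PC9/gef and 8.57 ± 0.045 in PC9). The difference between the stretch and its flanks was not tested, since the ends were set with the values known.

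Over all 14 lists of partners, 134 of 140 genes were measured and 128 lay above background level. Of these 32 rose (25%), 35 fell (27.3%) and 61 did not pass, with a median of 0.0023, against 23.8% called higher and 22.2% called lower among all genes above background level. The count of partners that rose was 21 without PC9/gef replicate 1. Partners were described list by list, by their counts. Apart from leaving out genes of the stretch, their places on the chromosomes were not taken into account. Changes that go with a complex and changes that go with a place therefore cannot be told apart. Of the markers of the labelled cell type, all 5 epithelial genes were far above background level, but of 5 lung lineage genes only SFTPB was above it, and NKX2-1, NAPSA, SFTPC and SLC34A2 were not.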

How the data were processed

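Expression in 3 PC9/gef and 3 PC9 samples was read on Affymetrix arrays with 54675 probe sets. The authors had corrected the background, normalized the arrays and summarized each probe set before they deposited log2 values. GC-RMA in GeneSpring GX is named in their supplementary methods and RMA in the submitters' processing notes, without a version. The deposited log2 values were used without further normalization.

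After removal of 62 controls, 41091 probe sets had 1 gene, 1801 had several and 11721 had no gene. The brightest of a gene's own probe sets, by its mean on the 6 arrays, stood for each of 19775 genes. Lines were compared by linear models with empirical Bayes moderation (limma 3.58.1, R 4.3.3), with Benjamini-Hochberg adjustment over all genes and a threshold of 0.05. The step was tested on simulated data. There, 61 of 100 genes changed by 0.5 in log2 were recovered, and 85 of 100 changed by 1, with 3 false calls. A gene that did not pass can therefore still differ between the lines. Figures were drawn with matplotlib 3.10.9.

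The members, the partner and marker lists and the promoter motifs were chosen with earlier results of these data known. All members could be named, and of each partner list up to 3 genes with the largest change among those called. Of the other genes of the stretch and its flanks, those over 2-fold and the nearest 2 on each side were named. BORA was chosen after its values were seen. The rule was written for members lower in PC9/gef, and the count of members over 2-fold higher was added after the data were seen. Gene order and sequences came from RefSeq (GRCh38.p14). The alternatives were median centring, quantile normalization, a filter on dim probe sets, trend and robust moderation, the replicate block, leaving out each array, and 3 other ways to read a gene from its probe sets. The first was the mean of all its probe sets, those at background level included. The second was its brightest probe set not named _x_at, _s_at or _a_at, which drops genes that have no other. The third was the probe set with the median change above background level. With an even number of them, the lower of the middle changes was taken. No counts lie behind the values, so the number of arrays and the signal over background limit the precision.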

Additional observations from a re-analysis of the deposited data

How the results depend on the processing

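Of the 55 members above background level, 45 were called higher, and the count was 42 to 45 with 1 array left out, 40 with the replicate block, 46 with a filter on dim probe sets and 37 without probe sets named _x_at, _s_at or _a_at. The last setting drops members with no other probe set, WBP4, COG3, ITM2B, CDADC1 and SUCLA2 among them, so its 37 is of fewer genes. With the replicate block SUPT20H, NHLRC3, MTRF1, EPSTI1, INTS6 and VPS36 were no longer called higher, and SETDB2 was. The median log2 difference of the members, 0.65, was 0.64 to 0.67 with 1 array left out. It was 0.35 when all probe sets of a gene were averaged and 0.48 on the probe set with the median change. Averaging takes in probe sets at background level, and the median-change setting takes the lower change where their number is even. Averaging thus lowers the median by rule, and the median-change setting does so only where the number is even. With an odd number the middle change is taken as it is. It was lower than on the brightest probe set in DGKH and TRIM13 and higher in WDFY2. The 9 members over 2-fold higher were 7 to 9 with 1 array left out (7 without PC9/gef replicate 1) and 2 when probe sets were averaged. The 1 member called lower, SUCLA2, became 0 with the filter on dim probe sets and with the replicate block, and was 0 to 1 with 1 array left out. Its only probe set is named _s_at. Without probe sets named _x_at, _s_at or _a_at it was not read, so the 0 there was fixed in advance.

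Other genes of the stretch called lower, 2, became 0 with the replicate block and without the named probe sets, and 1 on the mean and on the median-change probe set, with 2 to 3 when 1 array was left out. The 32 partners that rose became 21 with the replicate block, 20 without the named probe sets and 21 to 26 with 1 array left out, and the 35 that fell became 22 without the named probe sets. Over all genes, 2854 were called higher and 3382 lower, against 1832 and 1698 with the replicate block, 3062 and 5020 with trend and robust moderation, 1896 and 2715 without the named probe sets, 2188 to 2588 and 2050 to 4305 with 1 array left out, and 2184 higher on the probe set with the median change. Without the named probe sets 16788 genes were tested, and on the probe set with the median change 11956, against 19775 in the main setting. Genes with no other probe set drop out without the named ones, so the counts of partners and other genes there can be of fewer genes.

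Some log2 differences changed sign. Without the named probe sets SETDB2 was at -0.050 and MED31 at 0.21. SUPT20H, RGCC and INTS1 were left with probe sets at background level in both lines, so that their values there (-0.0007, -0.0003 and -0.0011) show no direction. On the probe set with the median change KBTBD6 was at -0.054, KBTBD7 at -0.20, FNDC3A at -0.044, SETDB2 at -0.015, DHRS12 at -0.026, CAB39 at -0.077 and RFX5 at -0.15. For KBTBD6 and FNDC3A the lower change was taken by rule. KBTBD7 was at -0.22 on the mean of its probe sets and from -0.013 (without PC9 replicate 2) to 0.058 with 1 array left out. On its brightest probe set WDFY2 ran from -0.054 (without PC9/gef replicate 1) to 0.086 with 1 array left out, and was at -0.016 without PC9/gef replicate 2 and -0.030 without PC9 replicate 1. These alternatives read other probe sets or fewer arrays.

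Same-numbered samples of the lines did not deviate together (correlations of -0.026, 0.016 and 0.048 over genes), so the replicate number was not taken as a pairing. Quantile normalization and median centring changed no call among the members. Since all arrays already carried the same sorted values, these settings could change little and do not check the normalization. Genes near background level cannot be read, and array signal gives no absolute amount.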

Other observations

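Probe sets annotated to several genes of the stretch represent no gene above. The probe set shared by KCNRG and TRIM13 read 4.73, 4.62 and 4.82 on the PC9/gef arrays, against 3.59, 3.93 and 3.64 on the PC9 arrays, a log2 difference of 1.001. The one shared by THSD1 and the pseudogene MRPS31P5 averaged 4.98 in PC9/gef and 4.05 in PC9, a difference of 0.93 without overlap. A probe set shared by ALG11, a mannosyltransferase of N-glycosylation, and UTP14C averaged 9.06 in PC9/gef and 8.63 in PC9, also without overlap. Another one that UTP14A shares with both averaged 9.26 in PC9/gef and 9.34 in PC9. The probe set shared by the noncoding genes DLEU2 and DLEU2L and the microRNA gene MIR15A averaged 8.14 in PC9/gef and 8.28 in PC9, and its arrays overlapped.

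Members with a GC box in the 250 bases upstream were 26 of the 40 matched members called higher and 3 of the 10 others. The numbers are 7 of 40 and 0 of 10 for the ETS letters, and 9 of 40 and 5 of 10 for CCAAT. They are 6 of 40 and 2 of 10 for TATAAA, 0 of 40 and 1 of 10 for TTTCGCGC, and 1 of 40 and 0 of 10 for TGACGTCA. Over protein-coding genes the shares are 56.5% for the GC box, 12.2% for the ETS letters and 34.8% for CCAAT. They are 9.38% for TATAAA, 0.721% for TTTCGCGC and 2.38% for TGACGTCA. These splits follow the contrast that chose the members and were not tested.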
